A study of Mus musculus with 21 samples.

Results

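The genes described here code for enzymes that build, interconvert, salvage or remove purine and pyrimidine nucleotides. They were taken as a list of 33 gene names, and 32 of them were found by name among the 15249 genes of the authors' table of regularised log2 values. The identifiers given there led to the rows of the count table. The count table held 47643 genes, of which 15300 had at least 10 reads over all libraries. All 32 passed that minimum. The purine nucleoside phosphorylase gene, Pnp, had no row under its name in the table of regularised log2 values. The count table was not searched by name, so this does not show that Pnp had no reads. The study measured mRNA in splenic CD4+ T cells that had been sorted by Timer colour from Tg4 Tiger Nr4a3-Tocky mice. These mice carry a transgenic T cell receptor (Tg4) for a peptide of myelin basic protein (MBP), a GFP reporter of Il10 (Tiger), and a fluorescent Timer protein under the control of Nr4a3 whose blue form matures into a red form (Tocky), so every group, the controls included, carried all 3 transgenes and a single receptor specificity. Mice were given 0.8 μg or 80 μg of the [4Y] variant of the MBP peptide under the skin, without adjuvant, and cells were taken 4 h, 12 h or 24 h later. The control group was untreated, and each of the 7 groups held 3 libraries, 21 in all, of which 18 came from immunised mice.

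The cells sorted at 4 h were Blue+Red-, those at 12 h Blue+Red+ and those at 24 h Blue-Red+, so the sorting gate changed with time and gate and time cannot be told apart. The gate of the control cells was not given in the sources used here. Mice of both sexes were used in the study, littermates of the same sex were randomised to groups, and their ages were not given in the sources used here. Replicates were individual mice according to the study's methods. Libraries were made with a 3′ mRNA kit (QuantSeq forward), which reads the end of each transcript. The 21 library totals lay between 2352800 and 6244279 reads, so that 3 counts corresponded to 0.48 to 1.28 CPM (counts scaled to the library total), and 1 transcript, Gm42418, took 17.0% to 27.8% of each library. All 8 CD4+ T cell markers checked were detected in every library, with Cd4 between 46.4 and 334 CPM and Cd3e between 78.9 and 283 CPM. The summed level of those 8 markers was 3355 CPM in control cells, 1624 to 1961 CPM in the groups at 4 h, 1405 to 1728 CPM at 12 h and 2900 to 3115 CPM at 24 h. Group means of summed B cell markers lay between 8.58 and 41.1 CPM, and those of summed myeloid markers between 2.47 and 18.4 CPM. Those of summed erythroid markers lay between 36.3 and 134 CPM, with Hbb-bs detected in every library. Among the B cell markers, Cd79b and Ms4a1 were detected in every library, Cd22 was at 0 in 1 and Cd79a in 17. Of the 5 myeloid markers, Lyz2 was detected in every library, and Csf1r was at 0 in 2, Itgam in 5, Adgre1 in 8 and Cd14 in 20. The part of these markers in the results below was not tested.

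Purine nucleotides are built stepwise on phosphoribosyl pyrophosphate (PRPP) until inosine monophosphate (IMP) is reached, which is then turned into AMP or GMP. Pyrimidine nucleotides are made as a ring first, then joined to PRPP to give UMP and, from UTP, CTP. Resting lymphocytes meet most of their need by salvaging bases and nucleosides, whereas dividing lymphocytes rely on new synthesis, and ribonucleotide reductase then converts ribonucleotides into the deoxynucleotides that DNA replication consumes.

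Most of the 32 genes were higher after immunisation. A gene was called when its adjusted p was below 0.05 and its log2 fold change, shrunken toward 0 for noisy genes, exceeded 1 in size. At 4 h after 0.8 μg, 22 genes were called higher and 4 lower than control, beside 17.3% and 23.4% of all genes tested. At 4 h after 80 μg, 22 were called higher and 3 lower, beside 18.4% and 25.1%. At 12 h the counts were 26 higher and 1 lower after 0.8 μg, beside 17.2% and 20.5%, and 25 higher and 1 lower after 80 μg, beside 17.8% and 20.1%. At 24 h they were 18 higher and 1 lower after 0.8 μg, beside 11.5% and 5.84%, and 19 higher and 1 lower after 80 μg, beside 12.3% and 7.91%. All 6 comparisons share the same 3 control libraries. The counts of genes called lower rest on few reads or lie near the threshold in part, as given with each gene below.

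The median log2 fold change of the 32 genes was 1.38 at 4 h after either dose, where the median over all genes tested was -0.13 after 0.8 μg and -0.15 after 80 μg. It was 2.15 and 2.25 at 12 h, beside a median of -0.11 over all genes at both doses, and 1.19 and 1.34 at 24 h, beside 0 and -0.0032. These 6 medians were the same to 2 decimals when genes with no group above 3 counts on one side were placed at the bound that this floor allows. Summed over the 32 genes, the level was 1389 ± 26.3 CPM in control cells (SD, n = 3 here and for every group mean below), 3336 ± 110.3 and 3629.8 ± 82.4 CPM at 4 h after 0.8 μg and 80 μg, 4275 ± 245 and 4469.5 ± 247 CPM at 12 h, and 3167 ± 276 and 3471 ± 190.4 CPM at 24 h. These are bulk values, in which fewer cells of a type and less RNA per cell cannot be told apart.

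**Figure D1:**
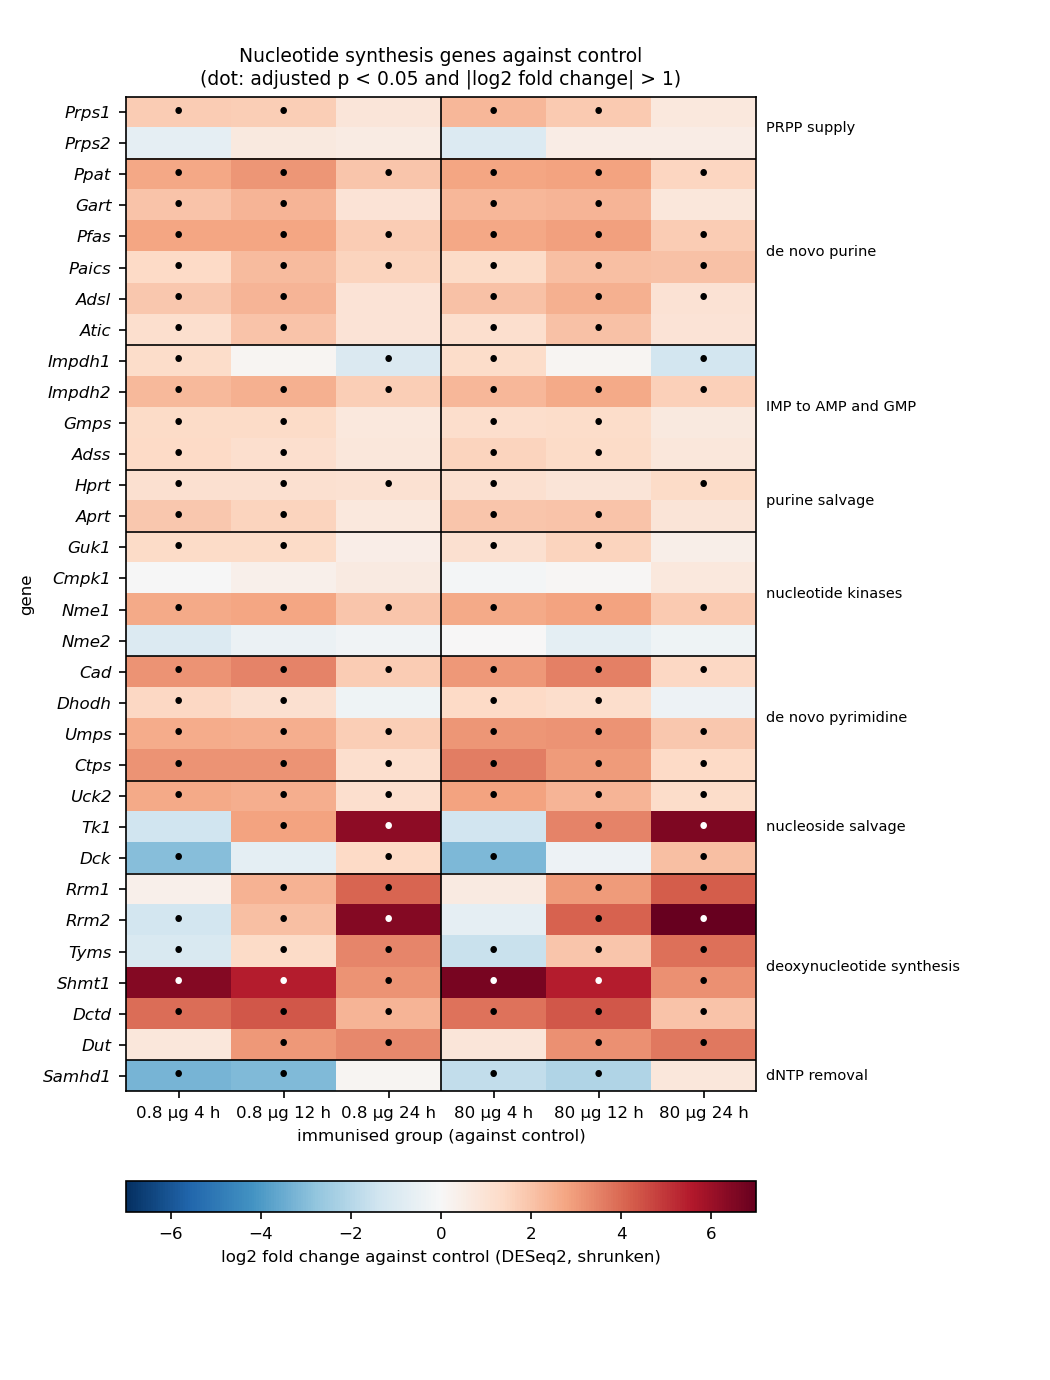
Shrunken log2 fold change against control (colour) for the 32 genes found (rows, by role) in the 6 immunised groups (columns, by dose and time), with a dot where a gene was called. Most rows of purine and pyrimidine synthesis are highest at 4 h or 12 h, whereas Tk1, Dck, Rrm1, Rrm2, Tyms and Dut are highest at 24 h and Samhd1 is lowest at 4 h and 12 h.

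The time of the highest group mean differed between genes, which describes the means and was not tested. The shares of all genes highest at each time were not counted. The numbers include Nme2, which had few reads, and Cmpk1, neither of which was called against control in any group. After 0.8 μg, 11 genes had their highest immunised mean at 4 h, 12 at 12 h and 9 at 24 h. After 80 μg the numbers were 8, 15 and 9. The time was the same at both doses for 7, 12 and 8 genes in turn, and the 8 that were highest at 24 h after either dose were Cmpk1, Tk1, Dck, Rrm1, Rrm2, Tyms, Dut and Samhd1.

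PRPP, the activated sugar on which both pathways draw, is made by PRPP synthetases. Prps1 (chrX:140456613-140476140, plus strand, GRCm38), which codes for one of them, had normalised counts of 107, 90.3 and 95.6 in the 3 control libraries. The 3 libraries at 4 h held 334, 366 and 333 after 0.8 μg, and 472, 493 and 494 after 80 μg. The libraries at 12 h held 350.0, 326 and 297 after 0.8 μg and 336, 415 and 289.7 after 80 μg, and those at 24 h held 168, 169 and 203 after 0.8 μg and 159, 158 and 177 after 80 μg. No immunised library was as low as any control library, and the 80 μg libraries at 4 h were the 3 highest of all. Prps1 rose by 1.80 (log2, SE 0.16, adjusted p = 4.9e-30) at 4 h after 0.8 μg and by 2.30 (SE 0.15, adjusted p = 5.4e-50) after 80 μg, and its differences at 24 h, 0.87 and 0.75, stayed under the fold threshold. Prps2, its isozyme, had 166 ± 16.8 in control cells and differed by -0.63 and -0.98 at 4 h, then by 0.70 and 0.55 at 12 h, and was not called in any comparison with control. The Prps2 value at 4 h after 80 μg lay close to the threshold and was called without control replicate 1 (-1.02), without control replicate 2 (-1.02) or without replicate 3 of that group (-1.12).

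All 6 genes of the route from PRPP to IMP rose at 4 h and at 12 h after either dose. Ppat (chr5:76913249-76951578, minus strand), the amidotransferase of the committed first step, had 95.9, 115 and 52.8 in control cells. It reached 557, 599 and 602 at 4 h after 0.8 μg and 626, 665 and 574 after 80 μg. It then had 746, 692 and 933 at 12 h after 0.8 μg and 632, 658 and 616 after 80 μg. At 24 h it had 339, 384 and 313 after 0.8 μg and 228, 252 and 277 after 80 μg, so that every 24 h library lay between the control libraries and those at 4 h and 12 h. The rise of Ppat was 2.69 (log2, SE 0.16, adjusted p = 3.6e-60) at 4 h and 3.11 (SE 0.16) at 12 h after 0.8 μg, or 6.43-fold and 8.65-fold, and it was still 1.93 and 1.48 at 24 h after the lower and the higher dose.

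Gart, a trifunctional enzyme of early steps, went from 172 ± 18.8 in control cells to 909.6 ± 16.3 and 913 ± 20.6 at 12 h after 0.8 μg and 80 μg, a log2 fold change of 2.40 at both doses. Pfas, which adds the next nitrogen, went from 52.4 ± 10.7 to 362 ± 22.4 already at 4 h after 0.8 μg (log2 2.74). Adsl, used both here and on the way to AMP, went from 78.5 ± 20.8 to 422 ± 9.80 and 459 ± 39.0 at 12 h. Paics and Atic, a bifunctional pair of later steps, rose less at 4 h, by 1.35 to 1.37 and 1.17 to 1.18, than at 12 h, by 2.13 to 2.19 and 1.97 to 2.06. The median over the 6 genes was 1.96 and 2.19 at 4 h after the lower and the higher dose, 2.39 and 2.46 at 12 h, and 1.28 and 1.26 at 24 h. At 24 h, Ppat, Pfas and Paics were called after both doses, and Adsl after 80 μg, with a value of 1.03 that was 0.88 without control replicate 3 and 0.99 without replicate 3 of that group. Gart and Atic were at 0.81 to 0.98 at 24 h. Which genes were called at 24 h turned on single libraries, so no difference between the doses is read from it. After 0.8 μg, Adsl was called without control replicate 1 (1.16) or replicate 3 of that group (1.10), Gart without control replicate 1 (1.02), and Atic without replicate 3 of that group (1.15). Atic was also called without control replicate 2 (1.06 at both doses) or control replicate 3 (1.03 and 1.02).

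From IMP, the way to GMP runs through IMP dehydrogenase, whose 2 isozymes had different courses. Impdh2 (chr9:108560286-108565584, plus strand), whose last 300 bases overlap an exon of Ndufaf3 on the opposite strand, had 116, 113 and 163 in control cells. It had 642, 653 and 598 at 4 h after 0.8 μg and 652, 685 and 629 after 80 μg, then 688, 738 and 758 at 12 h after 0.8 μg and 806, 789 and 858 after 80 μg. At 24 h it had 496, 438 and 356 after 0.8 μg and 392, 394 and 435 after 80 μg. Every immunised library was above every control library, by a log2 fold change of 2.28 to 2.65 at 4 h and 12 h and of 1.73 (SE 0.13, adjusted p = 2.5e-36) and 1.65 (SE 0.13, adjusted p = 1.1e-33) at 24 h. Impdh1 rose only at 4 h among these comparisons, from 266 ± 35.9 to 645 ± 7.76 and 662 ± 46.5 (log2 1.27 and 1.31). It was at 296 ± 49.2 and 296 ± 24.0 at 12 h, and at 24 h it was called lower than control, at 131 ± 13.1 after 0.8 μg (log2 -1.02) and 111 ± 16.0 after 80 μg (log2 -1.27, adjusted p = 8.4e-16). Without control replicate 1 the first of these was -0.92, and without replicate 2 of the 0.8 μg group at 24 h it was -0.95, both short of the threshold. Gmps, which turns XMP into GMP, and Adss, which commits IMP to AMP, rose by 1.18 to 1.57 at 4 h and 12 h and were not called at 24 h, with values of 0.71 to 0.81. Without replicate 1 in every group, Adss was called at 24 h after 80 μg (1.05).

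Of the purine salvage genes, Aprt (chr8), which recovers adenine, had 191, 220.1 and 183 in control cells. It had 785, 698 and 727 at 4 h after 0.8 μg and 721, 793 and 773 after 80 μg. At 12 h it had 517, 529 and 706 after 0.8 μg but 754, 900.2 and 738 after 80 μg, and at 24 h 349, 334 and 301 against 431, 336 and 369. All immunised libraries lay above the control libraries, and the doses did not overlap at 12 h. Aprt rose by 1.88 and 1.93 (log2, SE 0.14 for both) at 4 h and by 1.54 and 2.00 at 12 h after the lower and the higher dose. Hprt, which recovers hypoxanthine and guanine, went from 215 ± 27.1 to between 406 ± 69.4 and 533 ± 28.5 in the immunised groups, with log2 fold changes of 0.92 to 1.31. It was called in 5 of the 6 groups, all but 80 μg at 12 h, where the value was 0.92 and became 1.00 without control replicate 3 and 1.05 without replicate 2 of that group. With scaling by library totals, its calls at 4 h after both doses (0.97 and 0.99) and at 24 h after 0.8 μg (0.95) were lost, the last also without replicate 1 in every group (0.93).

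The kinases that carry nucleotides to their triphosphate form were less alike. Nme1 (chr11:93956979-93968521, minus strand), a nucleoside diphosphate kinase, had 267, 277 and 211 in control cells. It had 1640.3, 1581 and 1558 at 4 h after 0.8 μg and 1605, 1672 and 1519 after 80 μg, and 1709, 1579.6 and 1890.3 at 12 h after 0.8 μg and 1727, 1886 and 1787 after 80 μg. At 24 h it had 1102, 1131 and 713 after 0.8 μg and 869, 943 and 887 after 80 μg. The lowest immunised library, replicate 3 at 24 h after 0.8 μg, was still above the highest control library. Nme1 rose 6.24-fold and 6.26-fold at 4 h, 6.75-fold and 7.04-fold at 12 h and 3.86-fold and 3.53-fold at 24 h after the lower and the higher dose, each with an SE of 0.13 on the log2 scale. Guk1, the guanylate kinase, rose by 1.10 to 1.55 (log2) at 4 h and 12 h and was at 0.39 to 0.48 at 24 h. With scaling by library totals, the Guk1 call at 4 h after 80 μg (0.945) was lost. Cmpk1, the UMP and CMP kinase, was called in no group, with group means from 96.8 to 177 beside 105 ± 8.79 in control cells.

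All 4 genes of new pyrimidine synthesis rose at 4 h and 12 h after either dose. Ctps (chr4:120539868-120570276, minus strand), the CTP synthase, had the largest change among them, with 37.1, 44.6 and 42.8 in control cells. It had 374, 374 and 385 at 4 h after 0.8 μg and 590.3, 477 and 484 after 80 μg, then 385, 364 and 375 at 12 h after 0.8 μg and 316, 326 and 363 after 80 μg. At 24 h it had 126, 69.9 and 93.9 after 0.8 μg and 126, 96.4 and 108 after 80 μg. No control library overlapped any immunised library, and the doses did not overlap at 4 h or at 12 h, with the higher dose above at 4 h and below at 12 h (adjusted p = 0.66 at 12 h). Ctps rose 8.90-fold at 4 h after 0.8 μg (log2 3.15, SE 0.19, adjusted p = 4e-58) and 12.1-fold after 80 μg (log2 3.60, SE 0.19, adjusted p = 5.7e-77). Its rise at 24 h after 0.8 μg, 1.19, was 0.96 without replicate 1 of that group.

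Cad, the trifunctional enzyme that starts the ring, went from 58.5 ± 21.6 in control cells to 533 ± 71.3 and 485 ± 2.60 at 4 h and 671 ± 28.5 and 679.5 ± 84.9 at 12 h, which is 11.2-fold and 11.3-fold at 12 h. Umps, which makes UMP, went from 47.4 ± 13.6 to 296 ± 29.0 and 422 ± 26.5 at 4 h and to 292 ± 28.0 and 434 ± 7.25 at 12 h. Dhodh, the mitochondrial step of the ring, rose less, by 1.41 to 1.46 at 4 h and by 1.11 to 1.22 at 12 h, and at 24 h it was at -0.29 (adjusted p = 0.30) and -0.37 (adjusted p = 0.15). The other 3 genes remained called at 24 h, at 1.19 to 1.87. Uck2, which salvages uridine and cytidine, had a like course, from 118 ± 28.5 to 757 ± 34.1 and 835 ± 11.9 at 4 h and 274 ± 51.9 and 291 ± 44.8 at 24 h, and was called in all 6 groups.

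Of the 6 genes of deoxynucleotide synthesis, Rrm1, Rrm2, Tyms and Dut had their highest mean at 24 h after both doses, Dctd at 12 h and Shmt1 at 4 h. Promoter stretches are shown for Rrm1, Rrm2 and Tyms as examples of genes highest at 24 h that hold 1 of the letter strings searched, CCAAT in Rrm1 and Rrm2 and CACGTG in Tyms. Dut, Tk1, Dck, Cmpk1 and Samhd1, which were also highest at 24 h, hold none of the 5 strings in their windows. Shmt1 and Dctd, which were highest earlier, hold CCAAT. None of these genes is shown. Among windows of 300 bases (250 before to 50 after a start, RefSeq, GRCm38.p6, both strands searched), CCAAT was found in 37.4% of 32851 windows of all genes and in 13 of 38 windows of the listed genes (34.2%). CACGTG was found in 7.15% of all windows and in 6 of those 38 (15.8%), belonging to Tyms, Nme1, Paics, Atic and Impdh2. TTTCCCGC was found in 1.07% of all windows and in 2 of 38 (5.26%), those of Ppat and Prps2, whereas TTTGGCGC (0.514% of all windows) and TGATGCAA (0.895%) were in none. None of the 5 letter strings contains another. Windows were at hand for 30 of the 32 genes found, and for Pnp. The stretches below run 5′ to 3′ on the gene's strand from 120 bases before the start, with CCAAT or CACGTG in capitals, at 91 and 45 bases before the start in Rrm1, at 50 in Rrm2 and at 61 in Tyms. They lie at chr7:102441575-102441694 (plus strand) for Rrm1, chr12:24708134-24708240 (plus strand) for Rrm2 and chr5:30073626-30073745 (minus strand) for Tyms. A match describes the letters only.
Rrm1: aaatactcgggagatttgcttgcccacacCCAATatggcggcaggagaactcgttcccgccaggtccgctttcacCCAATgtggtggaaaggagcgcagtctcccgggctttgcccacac
Rrm2: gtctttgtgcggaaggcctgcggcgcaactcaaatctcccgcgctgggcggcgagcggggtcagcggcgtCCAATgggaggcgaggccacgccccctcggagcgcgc
Tyms: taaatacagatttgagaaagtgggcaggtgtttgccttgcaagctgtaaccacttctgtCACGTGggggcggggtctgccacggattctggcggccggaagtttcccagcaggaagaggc

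Rrm2 (chr12:24708241-24714146, plus strand), the S phase subunit of ribonucleotide reductase whose CCAAT stands in the stretch above, was near the detection floor until 12 h. It had 9.28, 3.04 and 4.28 normalised counts in control cells, 2.02, 1.32 and 1.08 at 4 h after 0.8 μg and 2.31, 4.84 and 2.57 after 80 μg. At 12 h it had 23.5, 33.1 and 25.8 after 0.8 μg and 141, 79.2 and 126 after 80 μg, and at 24 h 645, 648 and 448 after 0.8 μg and 966, 837 and 1112 after 80 μg. Every library at 12 h was above every control library, every library at 24 h was above every library at 12 h, and the doses did not overlap at either time. Rrm2 rose by 2.12 (log2, SE 0.41, adjusted p = 1.1e-06) at 12 h after 0.8 μg and by 4.13 (SE 0.38, adjusted p = 3.2e-23) after 80 μg, and by 6.45 (SE 0.38) and 7.19 (SE 0.38) at 24 h, or 87.4-fold and 146-fold. The control libraries held 9, 3 and 3 reads of Rrm2, beside a floor of 3 counts a library. At 4 h after 0.8 μg Rrm2 was called lower (fitted log2 -1.30, adjusted p = 0.041), and no bound on the fold is given. That call rested on 2, 1 and 1 reads and was lost without control replicate 1 (adjusted p = 0.27), without replicate 1, 2 or 3 of that group (adjusted p = 0.077, 0.090 and 0.12) and in a fit to the 6 samples compared (adjusted p = 0.22).

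Rrm1, the large subunit of the same enzyme, was well detected in all groups. It had 50.6 ± 5.55 in control cells, 65.8 ± 13.1 and 78.9 ± 19.4 at 4 h, 275 ± 56.6 and 411 ± 8.29 at 12 h and 868 ± 151 and 968 ± 99.8 at 24 h. It rose by 2.41 and 2.99 at 12 h and by 4.06 and 4.22 at 24 h, with an SE of 0.19 to 0.20 on the log2 scale. Tyms, the thymidylate synthase, fell at 4 h before it rose. It went from 32.8 ± 2.31 to 14.9 ± 4.32 after 0.8 μg (log2 -1.05, adjusted p = 0.0038) and 10.8 ± 6.28 after 80 μg (log2 -1.54, adjusted p = 2.9e-05), then to 370.2 ± 110.1 and 489 ± 23.2 at 24 h. The first of the 2 falls was -0.85 without replicate 2 of that group, short of the threshold. Dut, which removes dUTP and supplies dUMP, went from 105 ± 13.4 to 867 ± 77.7 and 974 ± 85.3 at 12 h and 1109.5 ± 226 and 1392 ± 94.8 at 24 h.

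The other 2 genes of this group were highest before 24 h. Shmt1, the cytosolic serine hydroxymethyltransferase that loads folate with a single carbon, had 9.59 ± 2.95 in control cells, 938 ± 21.6 and 1059 ± 48.2 at 4 h, 482 ± 40.7 and 477 ± 33.6 at 12 h and 95.6 ± 7.32 and 96.2 ± 6.92 at 24 h. Its rise at 4 h, 87.4-fold after 0.8 μg (log2 6.45, SE 0.28, adjusted p = 3.2e-104) and 98.7-fold after 80 μg (log2 6.62, SE 0.28, adjusted p = 4.3e-110), was the largest of the 32 genes at that time. The last 300 bases of Shmt1 overlap an exon of Smcr8 on the opposite strand. Dctd, the deoxycytidylate deaminase, had 3, 3 and 2 reads in the control libraries, so its level was at least 17.8-fold and 16.5-fold higher than in control cells at 4 h, at least 24.5-fold and 24.2-fold at 12 h and at least 5.96-fold and 4.21-fold at 24 h after the lower and the higher dose. Counted together, these 6 genes were called higher 6 of 6 at 12 h and at 24 h after either dose, against 2 of 6 at 4 h, when Rrm2 and Tyms were called lower after 0.8 μg and Tyms after 80 μg. Without replicate 3 in every group, Dctd at 24 h after 80 μg was not called (adjusted p = 0.061). The shares of all genes called higher were 17.3% and 18.4% at 4 h, 17.2% and 17.8% at 12 h and 11.5% and 12.3% at 24 h after the lower and the higher dose.

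Tk1 and Dck, kinases that salvage deoxynucleosides, were also highest at 24 h. Tk1 (chr11:117815526-117826092, minus strand), the cytosolic thymidine kinase, had 2.06, 6.08 and 4.28 in control cells, 0, 1.32 and 1.08 at 4 h after 0.8 μg and 1.16, 0.969 and 0.857 after 80 μg. It had 51.0, 29.3 and 24.7 at 12 h after 0.8 μg and 48.4, 55.8 and 58.3 after 80 μg, and at 24 h 449.8, 403 and 315 against 394, 511 and 479. All libraries at 4 h were at or under 1 read, and those at 24 h were above all others without overlap. Tk1 rose by 2.84 (SE 0.44) and 3.46 (SE 0.43) at 12 h and by 6.28 (SE 0.42, adjusted p = 2.5e-40) and 6.52 (SE 0.42, adjusted p = 1.3e-43) at 24 h. At 4 h it was not called (adjusted p = 0.052 and 0.053), although it was called lower by edgeR (adjusted p = 0.026 and 0.038) and without control replicate 1 (adjusted p = 0.028 and 0.026). The control libraries held only 2, 6 and 3 reads, beside a floor of 3 counts, so no fold is given for Tk1 at 4 h. Dck, the deoxycytidine kinase, fell at 4 h from 77.2 ± 3.76 to 8.72 ± 1.59 (log2 -2.99, SE 0.39) and 7.50 ± 4.75 (log2 -3.14, SE 0.39), was at 47.8 ± 23.3 and 59.7 ± 26.4 at 12 h and rose to 204 ± 15.8 and 346 ± 14.7 at 24 h (log2 1.37 and 2.13). Its value at 12 h after 0.8 μg, -0.69, was -1.12 without replicate 1 of that group and was then called lower.

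Genes of the DNA replication machinery were counted in the same comparisons. Of 20 such genes, the number called higher was 3 and 4 at 4 h after the lower and the higher dose and 20 at 12 h and at 24 h after either dose, against the shares of all genes given above (11.5% to 18.4%). Their summed normalised counts were 1638 ± 91.3 in control cells, 2160.4 ± 71.6 and 2302 ± 89.6 at 4 h, 10238 ± 1206 and 12994 ± 691 at 12 h and 15200.3 ± 2861 and 17919 ± 397 at 24 h. From 4 h to 12 h, 19 of the 20 were called higher after either dose, beside 12.6% and 15.7% of all genes. From 12 h to 24 h, 5 were called higher after 0.8 μg and 3 after 80 μg, beside 17.1% and 16.7%, and 0 were called lower. Tk1, Dck, Rrm1, Rrm2 and Tyms were called higher at both steps after both doses. Whether the courses are alike was not tested. The part of the 20 genes in the results for Rrm1, Rrm2, Tyms, Dut, Tk1 and Dck was not tested.

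Samhd1 (chr2:157097533-157135265, minus strand), a triphosphohydrolase that breaks down deoxynucleotides, was the 1 listed gene that was called lower at both 4 h and 12 h. It had 1183, 1347 and 1323 in control cells. It had 146, 142 and 113 at 4 h after 0.8 μg and 448, 387 and 330.1 after 80 μg, then 209, 127 and 114 at 12 h after 0.8 μg and 347, 284 and 245 after 80 μg. At 24 h it had 1178, 1634 and 1475 after 0.8 μg and 2119, 2354 and 2257 after 80 μg. All 12 libraries at 4 h and 12 h were below the control libraries, the 24 h libraries after 0.8 μg overlapped them, and those after 80 μg were the 3 highest of all. Samhd1 fell by 3.24 (log2, SE 0.17, adjusted p = 9.1e-77) and 3.07 (SE 0.17, adjusted p = 1.5e-72) at 4 h and 12 h after 0.8 μg, and by 1.72 (SE 0.16, adjusted p = 1.3e-25) and 2.12 (SE 0.16, adjusted p = 4.5e-38) after 80 μg. At 24 h it differed from control by 0.15 (adjusted p = 0.48) after 0.8 μg and by 0.80 (adjusted p = 2.2e-06) after 80 μg, under the fold threshold.

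**Figure D2:**
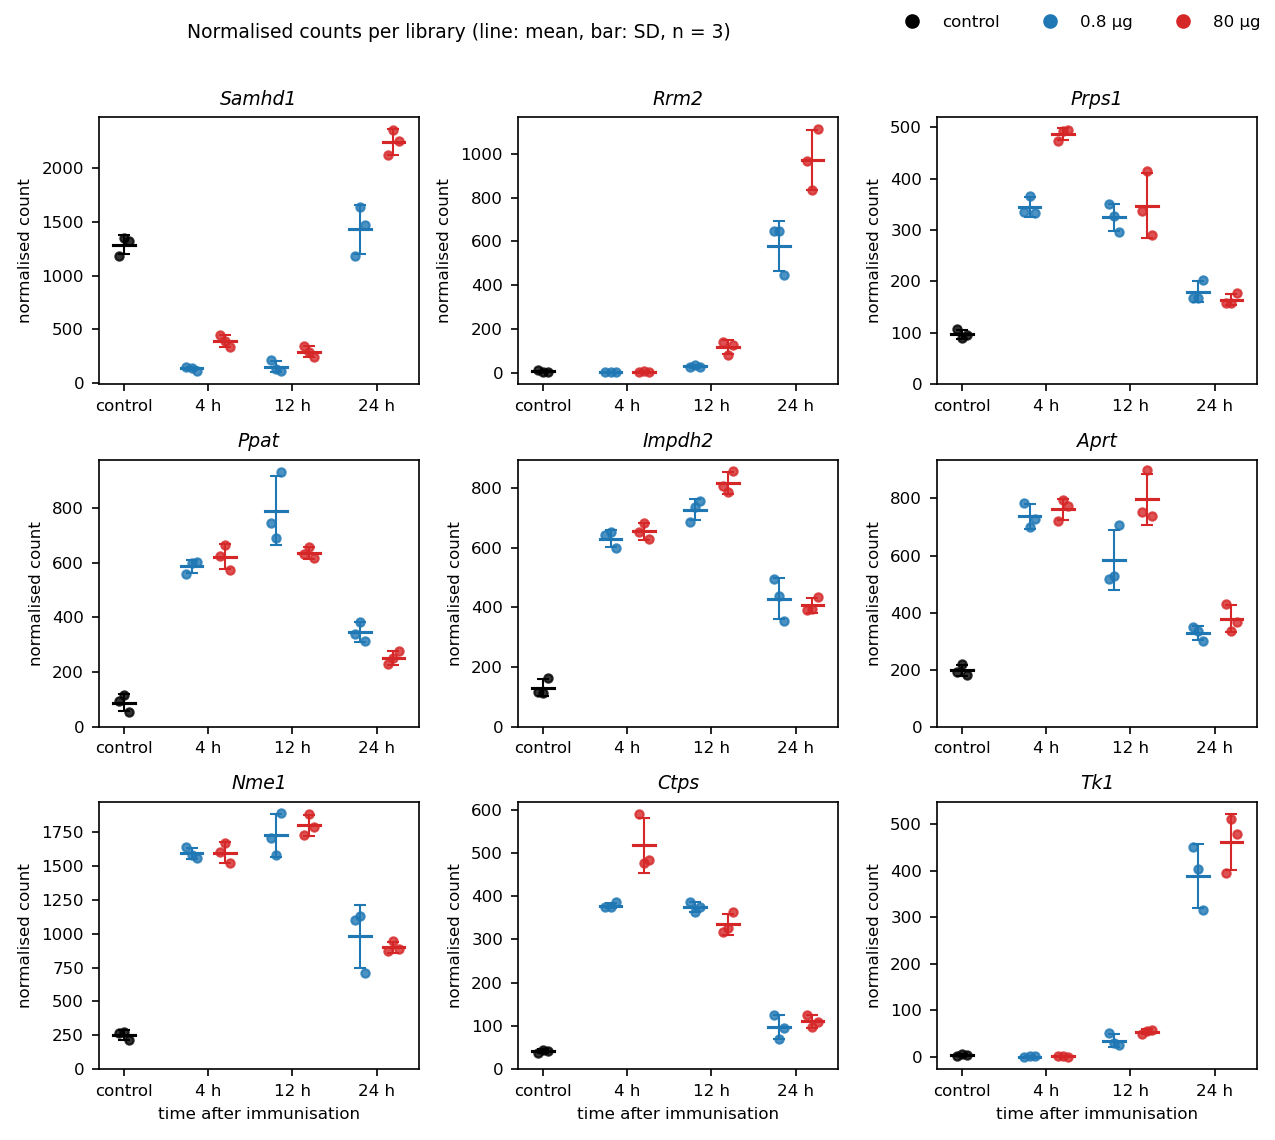
Normalised counts per library (points, linear axis) with group mean (line) and SD (bar, n = 3) for 9 genes in control cells and, by time, after 0.8 μg and 80 μg. Prps1, Ppat, Impdh2, Aprt, Nme1 and Ctps are raised by 4 h, Tk1 and Rrm2 climb from near the floor to their highest level at 24 h, and Samhd1 is lowest at 4 h and 12 h after 0.8 μg.

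Between successive times within a dose, Tk1, Dck, Rrm1, Rrm2 and Tyms were called higher at each step after both doses. From 4 h to 12 h, 7 genes were called higher after 0.8 μg and 1 lower, beside 12.6% and 7.98% of all genes, and 7 higher and 2 lower after 80 μg, beside 15.7% and 9.10%. The 7 were Prps2, Tk1, Dck, Rrm1, Rrm2, Tyms and Dut at both doses, with Tk1 at least 10.3-fold and 18.2-fold higher and, after 0.8 μg, Rrm2 at least 8.07-fold higher than the 4 h floor, and the genes called lower were Impdh1 at both doses and Shmt1 after 80 μg. The Impdh1 value after 0.8 μg, -1.12, was -0.99 without replicate 1 of the 12 h group. The medians were 0.27 and 0.16, beside 0.05 and 0.06 over all genes, and with genes at the floor placed at their bound the first was 0.18. From 12 h to 24 h, 6 genes were called higher and 10 lower after 0.8 μg, beside 17.1% and 9.48%, and 6 higher and 16 lower after 80 μg, beside 16.7% and 10.5%. The 6 were Tk1, Dck, Rrm1, Rrm2, Tyms and Samhd1 at both doses, with Samhd1 rising by 3.23 and 2.92 (log2, SE 0.17 and 0.16). The medians were -0.82 and -1.03, beside 0.12 over all genes at both doses. Falls at both doses included those of Shmt1, by 2.32 and 2.30, Dctd, by 1.97 and 2.37, Cad, by 1.72 and 2.07, and Ctps, by 1.95 and 1.60, and the number of falls called does not test whether the doses differ.

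The comparison of 80 μg with 0.8 μg at each time asks whether the dose changed the level of these genes. Nme2 could not be tested, which leaves 31 genes. At 4 h, 1 was called higher and 0 lower, beside 3.12% and 2.74% of all genes, and at 12 h 1 higher and 0 lower, beside 1.83% and 0.960%. At 24 h, 0 were called in either direction, beside 0.890% and 0.673%. With no fold threshold, DESeq2 gave 3 genes higher and 1 lower at an adjusted p under 0.05, beside 3.73% and 2.20% of all genes. The median difference was 0.05, 0.10 and 0.04 (log2) at 4 h, 12 h and 24 h, beside -0.02, 0.01 and 0.02 over all genes tested. With genes at the floor placed at their bound, the median at 4 h was 0.04.

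The gene called at 4 h was Samhd1, which was 2.87-fold higher after 80 μg than after 0.8 μg (log2 1.52, SE 0.18, adjusted p = 4.9e-16). The difference was 0.95 (SE 0.17, adjusted p = 2.9e-06) at 12 h and 0.65 (SE 0.16, adjusted p = 0.0016) at 24 h, under the fold threshold, and the 3 libraries of 1 dose lay above the 3 of the other at each time. At 12 h it passed the threshold without replicate 1 of the 0.8 μg group (1.25) or without replicate 3 of the 80 μg group (1.06). The gene called at 12 h was Rrm2, which was 4.05-fold higher after 80 μg (log2 2.02, SE 0.25, adjusted p = 8.2e-13), beside 0.74 (SE 0.20, adjusted p = 0.0066) at 24 h. At 4 h no group of Rrm2 stood clear of the floor and no fold is given. Of the 20 DNA replication genes, 3 were called higher after 80 μg at 12 h, where the share over all genes was 1.83%, and 0 at 4 h (3.12%) or 24 h (0.890%). At 4 h, the 8 CD4+ T cell markers summed to 1961 CPM (1915 to 2041) after 0.8 μg and 1624 CPM (1589 to 1688) after 80 μg, and the 5 myeloid markers to 18.4 CPM (4.59 to 26.5) and 2.47 CPM (0.462 to 4.38). At 12 h the CD4+ markers summed to 1405 CPM (1393 to 1417) and 1728 CPM (1643 to 1795). The 2 CD8+ T cell markers summed to 48.0 CPM (43.6 to 51.3) after 0.8 μg and 16.6 CPM (13.1 to 22.7) after 80 μg at 12 h, and to 38.3 CPM (34.3 to 40.9) and 24.0 CPM (20.1 to 28.8) at 24 h, with Cd8a at 0 in 1 of the 21 libraries and Cd8b1 in none. The 5 B cell markers summed to 26.6 CPM (23.8 to 31.9) and 8.58 CPM (6.53 to 12.5) at 24 h, and the 3 NK cell markers to 4.25 CPM (3.84 to 5.01) and 0.667 CPM (0 to 1.63), with Klrb1c at 0 in 12 of the 21 libraries, Klra8 in 14 and Ncr1 in 18. Dendritic cell markers summed to 2.02 CPM (0.972 to 3.25) after 0.8 μg and 0.0534 CPM (0 to 0.160) after 80 μg at 24 h, with Itgax at 0 in 11 libraries. Erythroid markers summed to 134 CPM (51.1 to 212) and 36.3 CPM (18.7 to 69.9) at 24 h, with overlap between the doses. The part of these values in the dose differences was not tested.

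Other differences between the doses passed the adjusted p of 0.05 without reaching the fold threshold. At 4 h these were Prps1 at 0.50 (SE 0.13), Gart at 0.29 (SE 0.10), Umps at 0.51 (SE 0.17) and Ctps at 0.45 (SE 0.14). At 12 h they were Aprt at 0.45 (SE 0.12), Umps at 0.56 (SE 0.17) and Rrm1 at 0.58 (SE 0.16). At 24 h they were Paics at 0.45 (SE 0.15) and, in the other direction, Ppat at -0.45 (SE 0.14). The remaining genes tested missed the adjusted p at every time, which does not show that the doses acted alike on them.

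**Figure D3:**
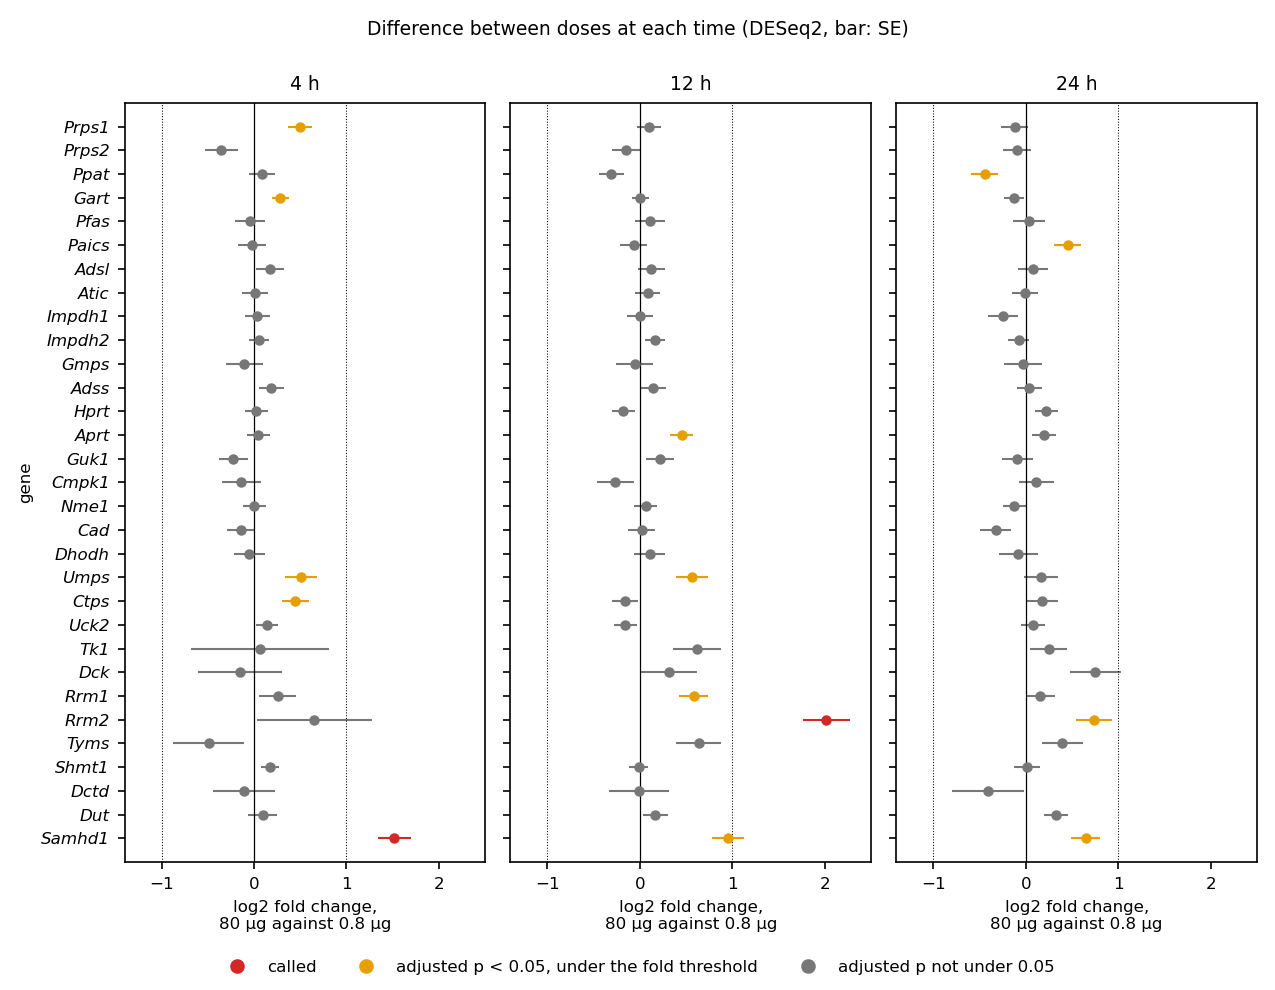
Shrunken log2 difference between 80 μg and 0.8 μg (points, with SE bars) for the 31 genes tested at 4 h, 12 h and 24 h, with dotted lines at a size of 1. Samhd1 at 4 h and Rrm2 at 12 h, in red, are the called genes, and genes in orange passed the adjusted p alone.

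Whether the dose difference itself changed with time was tested by an interaction in the 18 immunised libraries. It passed an adjusted p of 0.05 for 2 of the 31 genes, beside 10.4% of all genes tested. These were Rrm2 (adjusted p = 0.0047), with differences of 2.02 and 0.74 at 12 h and 24 h and none given at 4 h, and Samhd1 (adjusted p = 0.023), with 1.52, 0.95 and 0.65 at the 3 times. Prps1 came next (adjusted p = 0.055). Samhd1 no longer passed without replicate 3 at 4 h after 0.8 μg (adjusted p = 0.13), replicate 1 or 2 at 4 h after 80 μg (0.11 and 0.051), replicate 2 at 24 h after 0.8 μg (0.081) or replicate 1 at 24 h after 80 μg (0.071). Rrm2 passed without any single library, and did not pass without replicate 1 in every group (adjusted p = 0.50). Samhd1 did not pass without replicate 2 (adjusted p = 0.23) or 3 (adjusted p = 0.066) in every group. The number passing was 7 without replicate 3 at 12 h after 0.8 μg, beside 11.3% of all genes tested. It was 5 without replicate 3 at 24 h after 0.8 μg, beside 11.5%.

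Shares of reads within pairs of isozymes do not depend on how libraries are scaled. Reads were not divided by transcript length, so only changes of a share between groups are read. Impdh2 took 32.8% ± 5.02 of the Impdh1 and Impdh2 reads in control cells, 49.4% ± 1.45 and 49.8% ± 1.85 at 4 h, 71.2% ± 2.64 and 73.4% ± 2.22 at 12 h and 76.4% ± 4.55 and 78.6% ± 3.39 at 24 h. The share of Prps1 within Prps1 and Prps2 went the other way after 4 h, from 37.1% ± 3.33 in control cells to 76.4% ± 2.65 and 85.5% ± 1.94 at 4 h, 54.7% ± 2.99 and 58.6% ± 4.18 at 12 h and 42.1% ± 7.52 and 41.2% ± 1.26 at 24 h. Control and 4 h libraries did not overlap in either pair.

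Ctps took 21.3% ± 1.54 of its pair with Ctps2 in control cells, 96.2% ± 2.46 and 98.8% ± 0.502 at 4 h and 48.0% ± 10.6 and 49.1% ± 2.90 at 24 h. Shmt1 took 13.3% ± 3.91 of its pair with the mitochondrial Shmt2 in control cells, 57.9% ± 1.18 and 61.4% ± 1.32 at 4 h and 31.3% ± 1.35 and 32.4% ± 2.32 at 24 h. In the pairs of late genes the shift came after 4 h. Rrm2 took 5.68% ± 2.27 of its pair with Rrm2b, the subunit used outside S phase, in control cells, 43.7% ± 6.49 and 74.9% ± 9.44 at 12 h and 94.2% ± 1.97 and 96.7% ± 0.507 at 24 h, and the 2 doses did not overlap at 12 h. Tk1 took 2.91% ± 0.819 of its pair with the mitochondrial Tk2 in control cells, 51.9% ± 6.90 and 67.6% ± 4.90 at 12 h and 85.1% ± 2.57 and 87.8% ± 3.02 at 24 h. The 4 h shares of Rrm2, 11.3% ± 5.04 and 12.8% ± 2.44, rest on as few as 6 reads of the pair in a library.

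**Figure D4:**
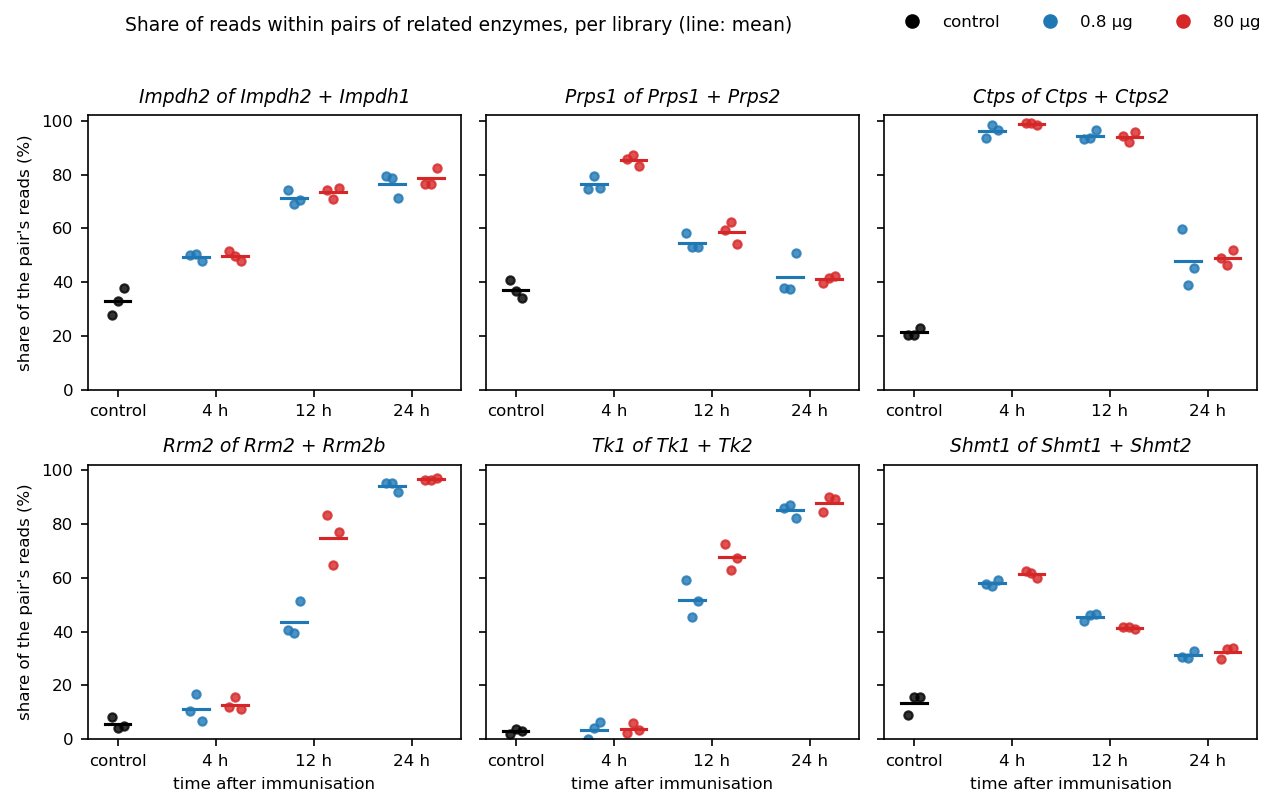
Share of a pair's reads (percent, vertical axis) taken by the first isozyme of 6 pairs in each library (points, with a line at the group mean) of the control group and the 6 immunised groups. Ctps, Prps1 and Shmt1 have their highest shares at 4 h, and Impdh2, Rrm2 and Tk1 at 24 h.

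Of 54 other genes of nucleotide metabolism and its folate supply, 48 were found by name in the table of regularised log2 values. Up to 45 were tested against control. At 4 h 14 were called higher and 15 lower after 0.8 μg and 14 higher and 16 lower after 80 μg, at 12 h 19 and 10 against 18 and 10, and at 24 h 15 and 3 against 15 and 5. At 4 h the shares of all genes were 17.3% higher and 23.4% lower after 0.8 μg and 18.4% and 25.1% after 80 μg, at 12 h 17.2% and 20.5% against 17.8% and 20.1%, and at 24 h 11.5% and 5.84% against 12.3% and 7.91%. Isozymes of listed enzymes were among those called lower at 4 h, with Ctps2 at -3.20 and -4.43 (log2), Rrm2b at -2.62 and -1.97, Tk2 at -2.31 and -2.16, as was the deoxyguanosine kinase Dguok at -2.30 and -2.73. Among the genes called higher at 4 h were the folate enzymes Shmt2 at 3.43 and 3.40, Mthfd1 at 2.42 and 2.57 and Mthfd2 at 2.23 and 2.72. Between the doses, 1 of these genes was called at 4 h, where 2.74% of all genes were called lower, Ctps2 at -1.23 (adjusted p = 0.039). At 12 h 0 were called, beside 1.83% of all genes higher and 0.96% lower. At 24 h 0 were called, beside 0.89% and 0.673%, and with shares this small the counts of 0 say little about the list.

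For 2 of the listed genes the counts are of limited use. Nme2 had 0 to 14 reads in every library and was called nowhere, and its exons are shared with Gm20390, a transcript that spans Nme1 and Nme2 and had 0 reads in all libraries. Pnp was not found by name, and Gm49342, which overlaps the RefSeq Pnp gene, had 26.7 ± 5.90 normalised counts in control cells, 42.0 ± 15.0 and 34.9 ± 3.40 at 4 h, 66.1 ± 11.9 and 80.4 ± 5.78 at 12 h and 99.1 ± 3.45 and 122 ± 26.4 at 24 h. Its row was not treated as Pnp. In all, 11 of the 32 genes share exon sequence with another gene, 3 on the same strand and 8 on the opposite strand, among them Ppat and Paics, which start head to head. At the last 300 bases, where 3′ libraries are read, the overlaps are those of Shmt1 with Smcr8, Impdh2 with Ndufaf3 and Gart with Gm15964, each on the opposite strand, and of Nme2 with Gm20390 on the same strand. The strand setting of the counting was not given in the sources used here, so reads of a gene and of its opposite-strand partner may not be separated.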

How the data were processed

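RNA from sorted cells of 21 mice was sequenced as 3′ mRNA libraries. The authors aligned reads with STAR (2.5.2a) to mm10 and deposited a table of raw counts per gene made with HTSeq. They also deposited a table of regularised log2 values (rlog) from DESeq2 per library. The rlog table was used here to match gene names to the identifiers of the count table and to count genes, and no test used its values. The raw counts were analysed with DESeq2 (1.42.0, R 4.3.3) in 1 fit of 7 groups, keeping genes with at least 10 reads in all, with Wald tests, normal shrinkage and Benjamini-Hochberg adjustment over all genes tested. A gene was called at an adjusted p under 0.05 and a log2 fold change above 1 in size. The dose by time interaction was a likelihood ratio test in 18 libraries. Levels are counts divided by DESeq2 size factors. Values in every library are given for genes called between doses and, in each role, for the called gene with the largest change against control and no overlap of groups. The members and lists were chosen with earlier results of these data known. Alternatives were edgeR (4.0.16), other scalings, filters and fits, and leaving out libraries. Scripts were tested on simulated data. Library totals limit precision at low counts, and p-values measure the spread between mice of 1 experiment. Gene positions are from GENCODE vM21.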

Additional observations from a re-analysis of the deposited data

Results flagged for a closer look

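For 2 genes the difference between 80 μg and 0.8 μg changed with time, by the interaction test in DESeq2 over the 18 immunised libraries. These are 2 of 31 genes tested, beside 10.4% of all genes, and 2 beside 5.78% with edgeR. For Rrm2 the adjusted p was 0.0047, and the 3 libraries of 80 μg lay above the 3 of 0.8 μg at 12 h and at 24 h. For Samhd1 the adjusted p was 0.023, and the 3 libraries of 80 μg lay above the 3 of 0.8 μg at all 3 times. Samhd1 no longer passed without any 1 of 5 libraries (adjusted p of 0.051 to 0.13), nor without replicate 2 (0.23) or 3 (0.066) in every group. Rrm2 did not pass without replicate 1 in every group (adjusted p = 0.50). The gap between the highest or lowest library and the others was not tested in groups of 3.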

How the results depend on the processing

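Of 416 log2 fold changes of single genes, 0 changed direction among those called as reported or under the other setting. Changes of sign in values called under neither were not counted. edgeR in place of DESeq2 left 409 on the same side of the threshold and added 7 calls, TMM scaling added 3, and no filter on low counts changed 0. Scaling by library totals, which moved the median of all genes by up to -0.23 (80 μg at 24 h against control), took away 6 calls and added 9. A fit with the replicate block added 1 call, that of Impdh2 between 12 h and 24 h after 80 μg (just past the fold threshold of 1), and changed no other. The numbers do not pair the samples: correlations of the 63 same-numbered pairs lay between -0.20 and 0.21, 12 of them above 0.1, and in 39 of 126 combinations a sample correlated best with its own number.

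With the adjusted p alone, the number of genes called was 2 lower at 12 h after 0.8 μg (27.9% of all genes under this setting) and 28 higher at 24 h after 0.8 μg (20.8%). Between the doses it was 5 higher at 4 h (5.81%), 5 higher at 12 h (3.67%), and 3 higher (3.73%) and 1 lower (2.20%) at 24 h. Between times it was 12 higher (20.9%) and 3 lower (18.2%) from 4 h to 12 h and 21 lower (19.1%) from 12 h to 24 h after 0.8 μg, and 13 higher (23.6%) and 6 lower (19.3%) from 4 h to 12 h after 80 μg. Fitting the 6 samples compared gave 0 lower at 24 h after 0.8 μg (5.75% of all genes). Scaling by library totals gave 5 lower at 4 h after 80 μg (27.6% of all genes, against 25.1% as reported), 0 lower from 4 h to 12 h after 0.8 μg (5.95% against 7.98%) and 5 interactions (10.3% against 10.4%). Leaving out 1 library, or 1 replicate number in every group, gave 2 to 4 lower at 4 h after 0.8 μg, 1 to 2 lower at 12 h after 0.8 μg, 0 to 1 lower at 24 h after 0.8 μg, 3 to 5 lower at 4 h after 80 μg, 1 to 2 higher between the doses at 12 h, 0 to 2 lower from 4 h to 12 h after 0.8 μg and 1 to 7 interactions. In the same order, without 1 replicate number in every group, all genes called were 2602 to 2631 (12482 to 12862 tested), 2160 to 2301 (12202 to 12580), 438 to 713 (11082 to 11734), 2839 to 2875 (12482 to 12580), 111 to 176 (9194 to 10582) and 755 to 869 (11082 to 11169). The interaction passed for 4.14% to 11.5% of all genes over these settings. Numbers over all genes without single libraries are given for the interaction only. The cause of these changes was not tested, except that the first setting drops the fold threshold.

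Low counts, at most 5 reads a library, limit what can be said of Tk1 and Rrm2 at 4 h and of Dctd in control cells. The control libraries were low too, with 9, 3 and 3 reads of Rrm2 and 2, 6 and 3 of Tk1. The sizes of their folds against control at 12 h and 24 h rest on these few reads. Isozyme shares with 0.5 added to each count stayed within the spread between libraries.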
